A study of Drosophila melanogaster with 2 samples.

Results

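MicroRNA genes are the genes of the fruit fly Drosophila melanogaster whose transcripts are annotated as pre_miRNA, the hairpin from which a microRNA is cut, or whose symbol begins with mir-. The Ensembl annotation of the dm6 genome holds 262 of them among 17873 genes, and both ways of choosing gave the same 262. They form 205 loci when hairpins of the same strand less than 10000 bp apart are joined. A hairpin was counted as near a peak when the peak's summit, its single base of highest signal, lay inside the hairpin or within 2000 bp of either end. By position, 122 hairpins lay in an intron of a protein-coding gene, 46 overlapped an exon of one, 44 lay in a gene for another non-coding RNA and 50 lay between genes.

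The peaks came from chromatin immunoprecipitation sequencing of cato, a basic helix-loop-helix transcription factor of the atonal family, in 1 condition with 2 biological replicates that the labels number 1 and 3. Embryos of both sexes, 0 to 16 h old, came from a transgenic line named cato-GFP that stably expresses cato with GFP at its C-terminus, and antibodies to GFP pulled down the fusion after sonication in a size range of 200 to 800 bp. The labels do not say what drives the fusion gene or whether untagged cato remained in the line. Whole embryos were used, so strong binding in few cells and weak binding in many cannot be told apart, and no input or control list was analysed here.

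The authors' list of peaks that passed the irreproducible discovery rate (IDR) procedure, which keeps peaks ranked alike in both replicates, held 2746 peaks. The signal value of a peak is the authors' own, and it is used here only to rank and describe peaks within 1 list, with rank 1 the strongest. The replicate lists held 30000 peaks each, weak ones included, so their lengths are no measure of the sites found. The depth of sequencing is not known. With a single condition there was no group to test against, and every share below is a description set beside the same share over other genes or bases.

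MicroRNAs are small RNAs cut from hairpins in longer primary transcripts, first by the Drosha and Pasha complex in the nucleus and then by Dicer-1 with Loquacious in the cytoplasm. Loaded into Argonaute-1, they pair through the seed, bases 2 to 8 from the 5′ end, with sites in messenger RNAs and lower the output of those messengers. A hairpin in an intron is usually made from the transcript of its host gene, and others have promoters of their own or lie in long non-coding transcripts that serve as their precursors. In fly neurogenesis microRNAs such as mir-9a, mir-7 and mir-279 are known to set the number or identity of sense organ cells and neurons, the setting in which cato and its relatives act.

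The mature sequences below, cut from the RefSeq dm6 genome at RefSeq's microRNA coordinates and written 5′ to 3′ as DNA, are examples from microRNAs with a summit nearby, chosen for a known role, a strong peak or a shared seed, together with relatives that carry the same seed. Capitals mark the seed.
mir-279-3p: tGACTAGAtccacactcattaa
mir-996-3p: tGACTAGAtttcatgctcgtct
mir-282-5p: tAGCCTCTactaggctttgtctgt
mir-92a-3p: cATTGCACttgtcccggcctat
mir-92b-3p: aATTGCACtagtcccggcctgc
mir-ban-3p: tGAGATCAttttgaaagctgatt
mir-375-3p: tTTGTTCGtttggcttaagtta
mir-4968-5p: tAGCTGCCacggtttgttgctt
mir-980-3p: tAGCTGCCttgtgaagggctta
RefSeq gave 481 mature sequences for 260 of the 262 genes, with 426 distinct seeds. The 17 genes that had a summit nearby gave 33 mature sequences and 32 seeds, of which 5 seeds occurred in another microRNA gene as well. The paired hairpins mir-281-1 and mir-281-2 shared both a seed and a summit. For other shared seeds the relatives lacked a summit. The seed of mir-279-3p also occurred in mir-996 and mir-286. That of mir-92a-3p occurred in mir-92b and in mir-310, mir-311, mir-312 and mir-313, and that of mir-4968-5p in mir-980. Among all of these only mir-279, mir-92a and mir-4968 had a summit within 2000 bp. The seed of mir-308-3p occurred in 14 genes, among them mir-2 and mir-13 hairpins, and of those 14 only mir-308 had one.

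The 101 bp windows centred on summits are shown next for 7 peaks, chosen as examples with and without an E-box and including the only summit that fell inside a hairpin, from the RefSeq dm6 genome, plus strand. Capitals mark the E-box CANNTG, the hexamer that basic helix-loop-helix proteins bind.
mir-279, chr3R:29214393-29214493: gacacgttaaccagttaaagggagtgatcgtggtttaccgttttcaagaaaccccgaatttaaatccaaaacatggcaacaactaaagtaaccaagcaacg
mir-282, chr3L:3250171-3250271: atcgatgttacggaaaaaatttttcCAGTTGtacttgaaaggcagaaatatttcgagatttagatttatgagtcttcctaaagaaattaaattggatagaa
mir-92a, chr3R:25646963-25647063: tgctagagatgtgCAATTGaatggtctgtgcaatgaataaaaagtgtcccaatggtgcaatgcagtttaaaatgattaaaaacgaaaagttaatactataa
mir-9377, chrX:12666567-12666667: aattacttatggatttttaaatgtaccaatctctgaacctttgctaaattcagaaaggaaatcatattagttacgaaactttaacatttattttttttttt
mir-9378, chr2L:10752055-10752155: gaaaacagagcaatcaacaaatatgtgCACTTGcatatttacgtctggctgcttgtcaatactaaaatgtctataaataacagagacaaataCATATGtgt
mir-ban, chr3L:644217-644317: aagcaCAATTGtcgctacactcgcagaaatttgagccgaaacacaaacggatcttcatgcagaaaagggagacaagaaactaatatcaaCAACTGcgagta
mir-4962, chrX:3777410-3777510: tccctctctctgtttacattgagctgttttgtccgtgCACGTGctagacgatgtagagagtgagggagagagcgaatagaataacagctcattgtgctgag
The windows at mir-279, the strongest peak, and at mir-9377 held no E-box, those at mir-9378 and mir-ban held 2 each, and the others shown held 1. The CACGTG of mir-4962, 10.5 bp from the summit, lay inside the hairpin at X:3777447 to 3777452 and overlapped 0 of its mature sequences.

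An IDR summit lay within 2000 bp of 17 of the 262 microRNA genes (6.49%), at 16 loci. These genes took 21 of the 2746 IDR summits (0.765%), and 22 pairs of gene and summit, because mir-281-1 and mir-281-2 shared 1 summit. A single summit lay near 13 of the genes, 2 summits near mir-308, mir-4968 and mir-9377, and 3 near mir-ban. The share of microRNA genes lay close to the share of all bases on the same chromosome arms, of which 7.22% were within 2000 bp of an IDR summit. It was below the shares for the other kinds of gene counted here. The other non-coding RNA genes were not counted as a group of their own at this limit. By the same rule 22.8% of all other annotated genes and 25.0% of protein-coding genes had a summit inside or nearby, although those genes are longer than a hairpin and so offer more bases. Measured from the 5′ end alone, 18.0% of the 13986 protein-coding genes had one. Among short genes, 39 of 312 tRNA genes (12.5%) and 86 of 301 genes for small nuclear and small nucleolar RNAs (28.6%) had a summit within 2000 bp.

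**Figure D1:**
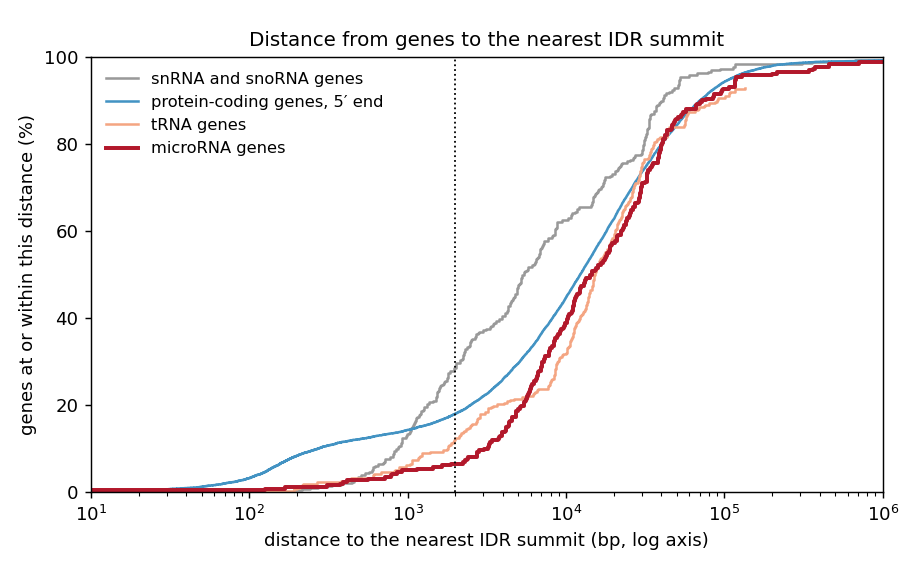
Share of genes (%, y axis) at or within a given distance (bp, log x axis) of the nearest IDR summit, for microRNA genes, tRNA genes, snRNA and snoRNA genes, and the 5′ ends of protein-coding genes; the dotted line is 2000 bp. The microRNA line is the lowest of the 4 at 2000 bp, at 6.49%, and reaches its median at 14198 bp, close to the tRNA line.

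By median distance to the nearest IDR summit microRNA genes lay close to tRNA genes, although fewer of them lay within 2000 bp. The median distance was 14198 bp for microRNA genes, 14376 bp for tRNA genes, 12232 bp for the 5′ ends of protein-coding genes and 5406 bp for snRNA and snoRNA genes. Within 500 bp of a summit lay 2.67% of the microRNA genes, against 12.2% of protein-coding 5′ ends. Within 10000 bp the shares were 38.9% and 44.7%. In relative terms the gap between microRNA genes and protein-coding 5′ ends was thus wider close to the summits than farther away.

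The members were then split by their position relative to other genes. In non-coding RNA genes 5 of 44 hairpins (11.4%) had a summit within 2000 bp, in introns of protein-coding genes 10 of 122 (8.20%), and between genes 2 of 50 (4.00%). None of the 46 hairpins overlapping an exon of a protein-coding gene had one. For comparison, 8.10% of all bases in non-coding RNA genes, 7.29% of bases in protein-coding introns, 4.72% of bases between genes and 10.1% of bases in protein-coding exons lay within 2000 bp of a summit. The intronic and intergenic shares were therefore near those of the bases around them. All 10 intronic hairpins with a summit lay in a host transcribed in the same direction, as did 100 intronic hairpins at 89 loci. None of the 22 whose only host ran in the opposite direction had a summit. Those 22 formed only 14 loci, too few to read this as a difference by direction. The intronic count rested in part on replicate 3: with the 2746 strongest peaks of replicate 1 alone 5 intronic hairpins had a summit, and with those of replicate 3 alone 8. Counting only protein-coding genes as hosts, 7 of 94 hairpins outside them had an IDR summit. The median distance to the nearest summit was 15607 bp for intronic and 27716 bp for intergenic hairpins.

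**Figure D2:**
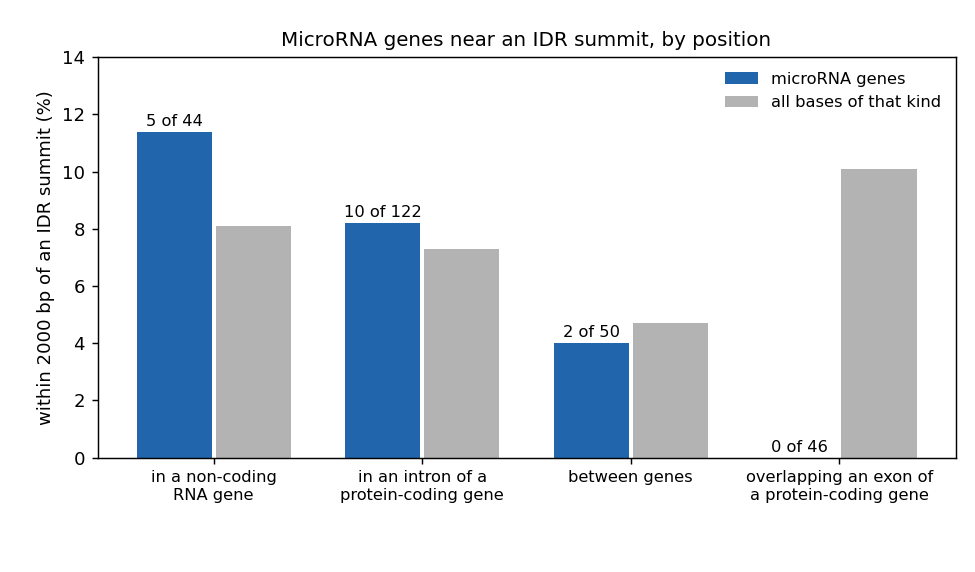
Share (%, y axis) of microRNA genes with an IDR summit within 2000 bp, by position of the hairpin (blue, with counts), beside the share of all bases of that kind that lie within 2000 bp of an IDR summit (grey). Hairpins in non-coding RNA genes had the highest share, 5 of 44, and those overlapping an exon of a protein-coding gene had 0 of 46.

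Distance to any annotated start site was set beside that of all bases. Of the 57 hairpins within 500 bp of a start site 4 had a summit (7.02%), of the 80 at 501 to 2000 bp 9 had one (11.2%), of the 108 at 2001 to 10000 bp 4 had one (3.70%), and of the 17 farther away none did. Of all bases in those ranges 16.4%, 12.8%, 4.16% and 1.49% lay within 2000 bp of a summit. The share of hairpins nearest to a start site was lower than that of bases there, and the other ranges were near theirs. Several of those 57 hairpins lie together in clusters, and 2 are on the rDNA unit, outside the bases counted. The lower share is therefore not read as a difference. Across the arms, 5 of 58 hairpins on X, 5 of 55 on 2R, 3 of 31 on 3L, 2 of 56 on 2L and 2 of 58 on 3R had a summit, while the share of bases near one was 6.65% to 7.90% on these arms. The 2 hairpins on chromosome 4 had none, and the 2 on the separate rDNA unit lie on a sequence with 0 IDR peaks.

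The 21 summits were spread over the strength of the list. Their signal values ran from 72.4 to 426.3 with a median of 125.5, against 68.9 to 1099.8 with a median of 106.3 for all IDR peaks. Of the 21, 12 fell in the stronger 50% of the list and 5 among the 274 strongest. Genes in non-coding hosts had best signals of 100.8 to 426.3, median 177.2, and genes in introns 72.4 to 237.1, median 85.8. The intergenic members had 253.4 and 129.5. Of the 22 pairs, 13 summits lay upstream of the hairpin's 5′ end, 8 downstream of the hairpin and 1 inside it.

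**Figure D3:**
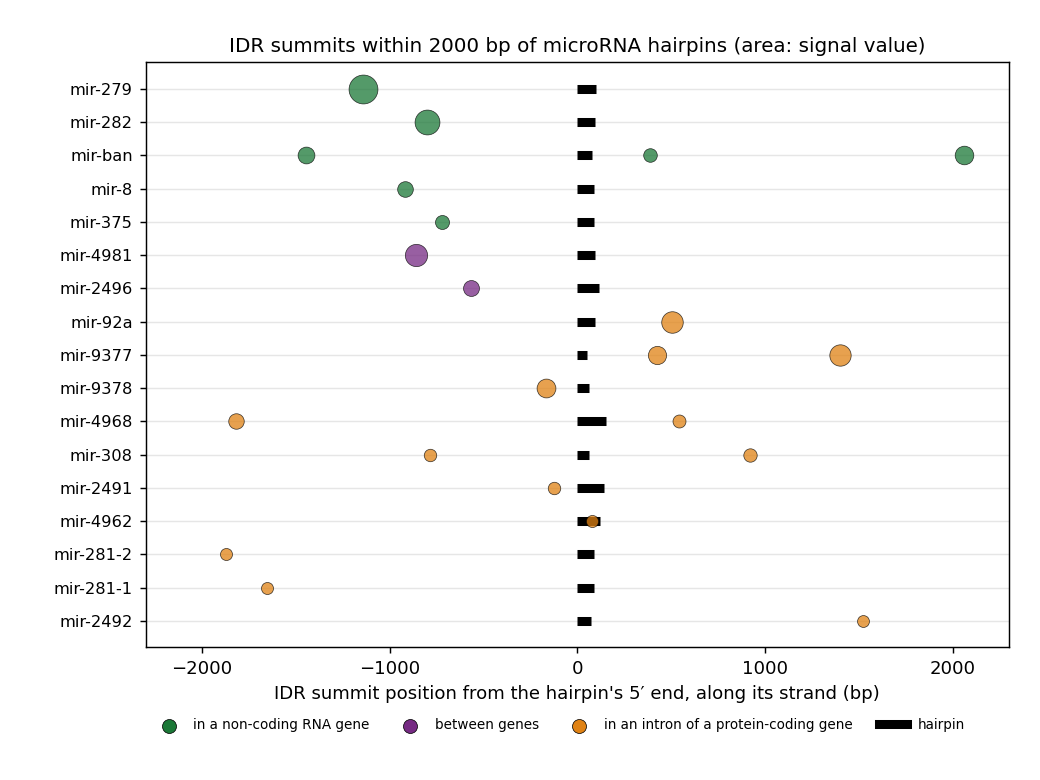
Position of each IDR summit (x axis, bp from the hairpin's 5′ end along its strand) for the 17 microRNA genes with a summit within 2000 bp; circle area is proportional to the authors' signal value, black bars are the hairpins and colours give the hairpin's position. The best summit lies upstream of the hairpin for 4 of the 5 genes in non-coding hosts, 5 of the 10 in introns and both between genes.

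The strongest peak was at mir-279, which represses the formation of carbon dioxide sensing neurons in the fly's olfactory system. Its hairpin lies at 3R:29215585 to 29215684 on the plus strand, inside the long non-coding RNA gene CR31044. The summit lay 1142 bp upstream of the hairpin and 119 bp from the start of CR31044. Its IDR signal was 426.3, rank 49 of 2746. In replicate 1 the overlapping peak had signal 120.0 and rank 78, and in replicate 3 signal 230.9 and rank 45. Both replicates thus placed it among their strongest peaks. The cluster partner mir-996, which shares the seed and much of the function of mir-279, lies farther along the same transcript, 2741 bp from that summit and so outside the limit.

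The next strongest was at mir-282, at 3L:3251022 to 3251118 on the plus strand inside the non-coding RNA gene CR43626. The summit was 801 bp upstream of the hairpin and 373 bp from a start site of CR43626, with IDR signal 316.1 and rank 125. That start is not among the starts of CR43626 transcripts that hold mir-282. Replicate 1 gave signal 98.6 and rank 143, replicate 3 signal 176.2 and rank 98. A weaker IDR peak, with signal 83.9, lay 410 bp from another start site of CR43626, more than 2000 bp from the hairpin. A transcript from that other start does hold mir-282. Both libraries again ranked the near peak high.

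The bantam microRNA, listed as mir-ban, promotes growth and blocks apoptosis by repressing the cell death gene hid. Its hairpin at 3L:642208 to 642288, plus strand, in the non-coding RNA gene CR43334, was the only one with 3 summits. The strongest, 1979 bp downstream of the hairpin and outside CR43334, had IDR signal 177.2, with rank 458 and signal 59.5 in replicate 1 and rank 532 and signal 86.4 in replicate 3. A peak in an exon of CR43334, 1444 bp upstream, had IDR signal 144.3, with rank 1054 and signal 39.4 in replicate 1 and rank 674 and signal 78.7 in replicate 3. The weakest, 308 bp downstream of the hairpin and also exonic, had IDR signal 94.9, with ranks 2486 and 1997. The 3 peaks kept 1 order in both replicates, and none lay within 500 bp of a start site.

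The other non-coding hosts held mir-8 and mir-375. The microRNA mir-8 acts in growth control and at the neuromuscular junction, and lies on the plus strand at 2R:16831432 to 16831518 in CR43650. Its summit, 917 bp upstream and 174 bp from a start of CR43650, had IDR signal 125.5, with rank 1251 and signal 35.8 in replicate 1 and rank 1066 and signal 62.7 in replicate 3. The microRNA mir-375, known in mammals from pancreatic islet cells, lies at 2L:857542 to 857632, plus strand, in CR45345. Its summit was 722 bp upstream of the hairpin and 583 bp from the nearest start site, with IDR signal 100.8, rank 1983 and signal 27.0 in replicate 1, and rank 1276 and signal 57.1 in replicate 3. Both peaks ranked among the 2746 strongest of each library.

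Between genes, the members with a summit were mir-4981 and mir-2496. The summit at mir-4981, on 2R, lay 859 bp upstream and had IDR signal 253.4, with rank 198 and signal 86.1 in replicate 1 and rank 257 and signal 121.6 in replicate 3. It ranks among the 274 strongest IDR peaks and lay 635 bp from the nearest start site, that of CG14762. The summit at mir-2496, on X, lay 564 bp upstream of the hairpin and 221 bp from the start of the non-coding RNA gene CR45478. It had IDR signal 129.5, with rank 994 and signal 40.5 in replicate 1 and rank 1553 and signal 51.7 in replicate 3.

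Among the intronic members the strongest peak was at mir-92a, whose host jigr1 is known to be active with it in neuroblasts, the stem cells of the fly nervous system. The hairpin lies at 3R:25646506 to 25646600 on the plus strand. The summit was 413 bp downstream of the hairpin, near an alternative start of jigr1 233 bp away, with IDR signal 237.1, rank 350 and signal 67.0 in replicate 1, and rank 255 and signal 122.1 in replicate 3. That start lies beyond the hairpin, so the transcript it begins does not hold mir-92a. The starts of jigr1 transcripts that do hold it had no summit within 500 bp. The partner hairpin mir-92b, in an exon of jigr1, was 4385 bp from the nearest IDR summit and had no peak of either replicate within 2000 bp.

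An intron of Tis11, which encodes an RNA-binding protein that directs messenger RNAs to decay, holds mir-9377 at X:12665217 to 12665268, plus strand. Its stronger summit, 1349 bp downstream, had IDR signal 233.3, with rank 282 and signal 74.5 in replicate 1 and rank 325 and signal 110.7 in replicate 3. The weaker, 373 bp downstream, had IDR signal 170.1, with ranks 770 and 554. Both lay inside an intron, the nearer 5107 bp from the closest start site. The summit at mir-9378, in an intron of CG17124 at 2L:10751877 to 10751938, lay 167 bp upstream with IDR signal 181.2. There the replicates differed more in rank than at the peaks above, with rank 1671 and signal 30.1 in replicate 1 and rank 309 and signal 112.7 in replicate 3.

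In an intron of Mob2, which encodes an adaptor of NDR kinases, mir-4968 had a summit 1816 bp upstream with IDR signal 122.9, at rank 721 in replicate 1 and 1700 in replicate 3. A weaker one 391 bp downstream had signal 86.4. The other intronic members had best IDR signals of 72.4 to 91.8. They were mir-308 in the ribosomal protein gene RpS23, mir-2491 in fog, whose secreted product drives cell shape change at gastrulation, mir-4962 in the kinase gene Tlk, mir-281-1 and mir-281-2 in Oda, the antizyme of ornithine decarboxylase, and mir-2492 in the kinase gene Drak. Among the hosts of these other members, only RpS23, that of mir-308, had a summit near a start of a transcript holding the hairpin, 21 bp away. The hairpin of mir-4962 held its summit, with IDR signal 75.3, rank 2977 and signal 20.9 in replicate 1 and rank 3395 and signal 31.6 in replicate 3. The summit shared by the mir-281 pair ranked 5185 in replicate 1 and 2364 in replicate 3.

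**Figure D4:**
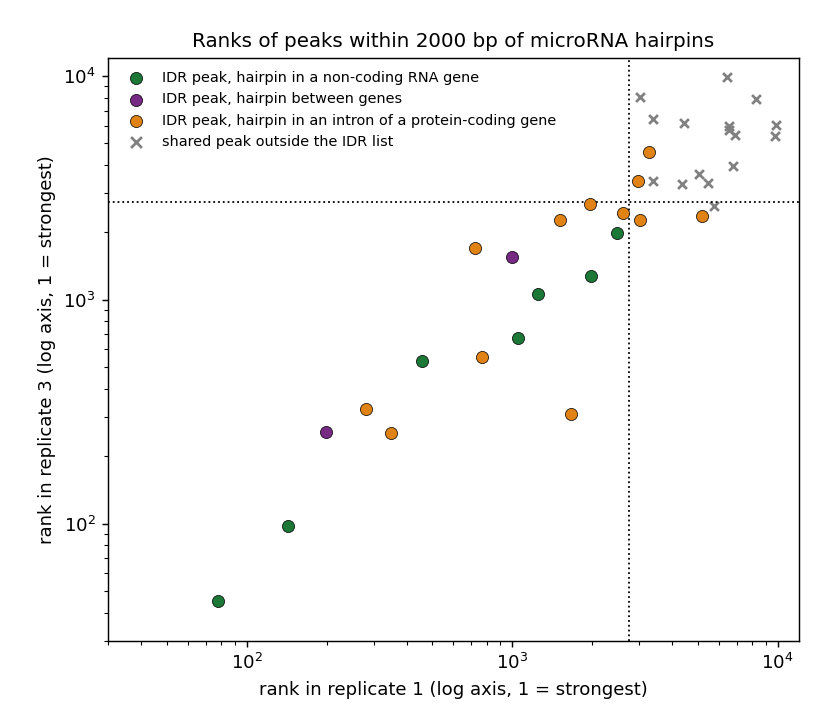
Rank in replicate 1 (log x axis) against rank in replicate 3 (log y axis) of the peaks overlapping each IDR summit near a microRNA gene (circles, coloured by hairpin position), with peaks shared by the replicates outside the IDR list to rank 10000 (crosses); dotted lines mark rank 2746. Of the 21 circles 17 lie below the lines on both axes, with the peaks of mir-279 and mir-282 at the lower left.

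The replicates were compared at equal list lengths. Every one of the 21 summits lay in a peak overlapped by the full lists of both replicates. The 2746 strongest of each overlapped 17 (81.0%), against 75.7% of all IDR peaks. The IDR list was drawn from these same replicates, so overlap with them is built into it and is no separate support. Among the 2746 strongest peaks of replicate 1 a summit lay within 2000 bp of 12 microRNA genes, and in replicate 3 of 16. The 12 of replicate 1 were among those of replicate 3 and all had an IDR summit, so 12 of 262 genes (4.58%) were near a strong peak in both. By the same count the shares were 10.6% for tRNA genes, 23.6% for snRNA and snoRNA genes and 14.6% for protein-coding 5′ ends. Of the other 5 genes with an IDR summit, 3 were near a strong peak in replicate 3 alone, and mir-4962 and mir-2492 in neither.

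At weaker ranks the replicates shared further peaks near microRNA genes. Of the 245 genes without an IDR summit nearby, 66 had overlapping peaks of both full lists within 2000 bp, 21 of them at rank 10000 or better in both and 4 at rank 5000 or better. These 4 were mir-955, with ranks 3397 and 3402, and the cluster of mir-13a, mir-13b-1 and mir-2c, which shared a peak of ranks 4375 and 3292 in the non-coding RNA gene CR45911. The mir-2 and mir-13 hairpins carry a seed that targets the cell death genes reaper and hid. They share it with mir-308, which had an IDR summit nearby. A peak of ranks 5476 and 3313 was shared by mir-2a-1, mir-2a-2 and mir-2b-2, in an intron of spi, the gene of an epidermal growth factor receptor ligand. No peak of either full list lay near 56 of the members. For these counts no share of other genes or of bases was taken. With 30000 peaks per list, they cannot be read as particular to microRNA genes.

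The 2000 bp limit passed through a thin part of the distances. The farthest members inside it, by their nearest summit, were mir-281-2 at 1873 bp, mir-281-1 at 1655 bp and mir-2492 at 1449 bp, with IDR signals of 74.2, 74.2 and 72.4. The first outside were mir-1009 at 2248 bp with signal 80.2, mir-955 at 2317 bp with signal 194.6, mir-4982 at 2364 bp with signal 114.5 and mir-998 at 2418 bp with signal 104.2. The 4 just outside thus had stronger peaks than the 3 just inside.

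A hairpin can lie far from the start of the transcript that carries it, so start sites of host transcripts that hold a hairpin in their own direction were examined, for intronic and exonic hairpins apart. An IDR summit lay within 500 bp of such a start for 14 of 93 protein-coding hosts of intronic hairpins (15.1%), 6 of 36 protein-coding hosts of exonic hairpins (16.7%) and 4 of 29 non-coding hosts (13.8%). Of protein-coding genes without an intronic hairpin in their own direction, 13.7% had a summit that close to any start. Of the other non-coding RNA genes 4.79% had one. The hosts were scored only on starts of transcripts that hold a hairpin, a narrower measure. Among the 14 hosts, CG7029 and Usp12-46 shared a start and its summit, as did CG45092 and chk. Per start site, 17 of 183 starts of hosts of intronic hairpins (9.29%), 7 of 60 of hosts of exonic hairpins (11.7%) and 4 of 41 starts of non-coding hosts (9.76%) had one, against 12.2% and 4.71% of the start sites of other genes. Protein-coding hosts were thus near their background, and the share of non-coding hosts was above theirs, which rests on 4 hosts. Those 4 were CR31044, CR43626, CR43650 and Hsromega, the heat shock RNA gene that holds mir-4951. CR43626 was counted through its weaker peak, of signal 83.9, and not through the stronger peak nearer to mir-282.

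Through these starts 14 intronic hairpins had an IDR summit at a start of a protein-coding host, 12 of them with none within 2000 bp of the hairpin. So did 6 exonic hairpins, all without a nearby summit, among them mir-4943 in CG5953, with signal 181.7, and mir-4952 in the neurexin gene Nrx-1, with signal 117.8. The strongest for intronic hairpins were at MRP, a multidrug transporter gene that holds mir-9382, with signal 262.7, and at PAPLA1, a phospholipase gene that holds mir-4984, with signal 257.4. A start of spi, host of mir-2a-1, mir-2a-2 and mir-2b-2, had a summit of signal 219.8 at 213 bp, and another start of spi one of 80.2 at 83 bp. A start of bun, a growth regulator gene that holds mir-967, had signal 197.4, a start of Mob2 178.2 and Hsromega 160.6. The start of the mir-967 host transcript lies 23489 bp from the hairpin, so such a start can be far from the hairpin.

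Role lists gave few members with a summit. Of 39 microRNA genes with known roles, 3 had an IDR summit within 2000 bp (7.69%), near the 6.49% of all members. Among 11 of the nervous system and sense organs, mir-279 had one. The microRNA mir-9a, which represses senseless and so limits sense organ precursors, was 4333 bp away with a peak in replicate 3 alone, at rank 8322. The neuronal mir-124 was 16751 bp away, and mir-7 was 17362 bp away. Of 15 microRNAs of growth and apoptosis, mir-ban and mir-8 had a summit.

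The other role lists had none. The timing cluster of mir-100, mir-let7 and mir-125, which acts at metamorphosis, was 5131 to 6022 bp from the nearest IDR summit. The muscle microRNA mir-1 was 7238 bp away. The Hox cluster microRNAs mir-iab-4, mir-iab-8, mir-10 and mir-993 were 13024 to 46467 bp away. The 5 listed members of the early embryo cluster, mir-309, mir-3, mir-286, mir-4 and mir-5, which clear maternal messengers, were 29484 to 30032 bp away.

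Sequence under the summits was compared with all IDR summits in windows of 101 bp, counting both strands. An E-box CANNTG occurred in 13 of the 21 windows near microRNA genes (61.9%) and in 897 of 2746 windows of the whole list (32.7%). The window set differs in location. Of the 21, 7 lay within 500 bp of a start site, against 54.3% of all IDR summits, 8 in introns against 31.4%, 4 between genes against 12.2% and 2 in exons against 2.08%. Away from start sites 10 of 14 windows held an E-box against 35.5% of the list, and within 500 bp of one 3 of 7 against 30.2%. The E-boxes numbered 15, and 9 had their centre within 25 bp of the summit.

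The classes of E-box varied. CATATG and CAAATG, both forms of CANNTG, each occurred in 3 of the 21 windows, against 4.12% and 10.1% of the list. CAGCTG occurred in 0 of the 21 and in 2.99% of the list. Of motifs for promoter and insulator proteins, the DREF motif TATCGATA occurred in 0 of the 21 against 1.57%, and CGATAG, bound by BEAF, in 1 (4.76%) against 3.86%. Base composition was alike, with a median GC content of 32.7% (22.8% to 48.5%) near microRNA genes and 30.7% over the list.

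A fixed list of genes that make and use microRNAs was examined by the same rule. The list, called biogenesis genes below, also holds Dcr-2, r2d2 and AGO2, which act mainly with small interfering RNAs. Of 17 listed genes 6 had an IDR summit inside or within 2000 bp (35.3%), against the 25.0% of all protein-coding genes given above. The strongest was beside pasha, the RNA-binding partner of Drosha, with IDR signal 401.7 and ranks 63 and 73 in replicates 1 and 3. Its summit lay 1803 bp from pasha and 14 bp from the start of the neighbouring gene Mnat9. The peak near loqs, the partner of Dicer-1, had signal 271.3 and ranks 224 and 175, and lay 122 bp from the start of CG7099. The summits at r2d2 and Cbp20, with signals 128.2 and 90.7, lay 179 and 161 bp upstream of those genes and nearer still to the starts of Herp and CG7218. That of Nbr, with signal 73.2, lay 1948 bp away, at the start of Coq3. Only gw, the Argonaute partner that silences messengers, had the summit nearest to its own start, 120 bp away, with signal 112.5 and ranks 1429 and 1309. No IDR summit lay within 2000 bp of drosha, Dcr-1 or AGO1, and that nearest to AGO2 was 2049 bp away.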

How the data were processed

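Peak lists of replicates 1 and 3 and the list of optimal IDR peaks, all on dm6, were used as deposited. Their signal values are the authors', on their peak caller's scale. Which caller, aligner and versions were used is not given in the sources used here. The lists on dm3 and the pooled list were not used here.

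Genes came from Ensembl release 115 (BDGP annotation 6.54). Mature microRNAs listed there as genes of their own, and transposable elements, were left out. In that annotation mir-263a is mir-bft, bantam mir-ban, let-7 mir-let7 and nbr Nbr. Names were matched to these after the data had been opened. Sequence came from RefSeq on the same assembly. A peak of a replicate was matched to an IDR peak by an overlap of at least 1 bp. Python 3.11.15, numpy 2.4.6 and, for plots, matplotlib 3.10.9 were used. The counting code was tested on simulated peaks.

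Members, role lists and limits were chosen with earlier results of these data known. Named genes are the members near an IDR summit, with full values for at most the 12 strongest loci. Those nearest the 2000 bp limit, the role lists and the list of biogenesis genes are named as well. Hosts of hairpins with a summit at a start site and hairpins with weaker shared peaks were named after their values were seen. No test was made, since 1 condition gives no comparison between groups. Depth is unknown, so no counting error could be given.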

Additional observations from a re-analysis of the deposited data

How the results depend on the processing

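Using only the 2746 strongest peaks of 1 replicate, 12 to 16 microRNA genes had a summit within 2000 bp against 17 with the IDR list. The same range, 12 to 16, held where 12 were near a strong peak of both. Intergenic genes gave 2 to 2, intronic genes 5 to 8 against 10, and biogenesis genes 6 to 6. The lower counts for all and for intronic genes came with replicate 1 alone, that is without replicate 3. The stronger 50% of IDR peaks gave 10 microRNA genes, of them 4 intronic. A limit of 5000 bp gave 50 genes with an IDR summit, 4 of them intergenic and 26 intronic. At that limit the share was 19.1% for microRNA genes, 21.5% for tRNA genes and 29.6% for protein-coding 5′ ends. For snRNA and snoRNA genes it was 47.5%. The same limit gave 44 microRNA genes near a strong peak in both replicates, a count without a share of other genes beside it. A limit of 1000 bp gave 3 biogenesis genes against 6. The 10000 strongest peaks of each replicate gave 41 genes near a peak in both, likewise without a share of other genes. With only protein-coding genes counted as hosts, 7 of 94 genes counted as intergenic against 2 of 50. Every other setting tried, such as counting any base of a peak, loci in place of genes or hosts on the same strand, stayed within 1.5 times its count. The share of microRNA genes near a summit therefore depends on the distance limit. No paired analysis was possible because there is only 1 group. With 2 replicates, unknown depth and no control list, counts of 2 to 10 genes per class are small, and a peak near a hairpin does not show which gene it serves.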
